A study of Mus musculus with 18 samples.

Results

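The effect of a Brca2 and Trp53 deletion was compared between luminal progenitor (LP) and basal cells, which had been sorted from mouse mammary glands. Of the 18 messenger RNA libraries in the series, 12 entered the comparison by their labels, 3 in each of 4 groups. The groups were LP from knockout (KO) mice, LP from wildtype (WT) mice, basal cells from KO mice and basal cells from WT mice. All mice were females of 14 weeks, and 3 individual KO and 3 individual WT mice gave all libraries, so that LP and basal libraries of a genotype with the same replicate number were taken as 1 mouse. The genotype label is Brca2KO or WT, and the sample names call the KO mice a knockdown. KO mice carried 1 copy of the MMTV-cre transgene, written MMTV-cre(T/+), with the alleles Brca2(delta/delta) and Trp53(delta/+). The strain label of every library, WT included, reads MMTVcre Brca2(fl/fl) Trp53(fl/+), so whether the WT mice carried Cre or floxed alleles is not settled by the labels. Cre in this model is driven by the promoter of mouse mammary tumor virus, which is active in mammary epithelium, and the share of LP and basal cells in which it had acted was not measured here.

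The mammary epithelium has an inner luminal layer and an outer basal layer. Basal cells contract to eject milk, anchor the duct to its basement membrane and make keratins 5 and 14. LP cells carry the receptor Kit and the transcription factor Elf5 and give rise to milk-secreting alveolar cells. Brca2 acts in the repair of broken DNA by homologous recombination, and p53, the product of Trp53, halts division or kills cells after DNA damage. The quantity tested for each gene was the KO effect in LP (log2 KO over WT) minus the KO effect in basal cells. It equals the LP minus basal difference in KO mice less the same difference in WT mice, and it was fitted with the mouse as a block. A positive value means a KO effect that was more positive in LP. Levels are CPM, read counts scaled to library size with TMM factors, and means are given ± SD over n = 3 mice. In bulk RNA, more cells of a kind and more RNA per cell cannot be told apart.

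Trp53 (gene 22059, chromosome 11, 69580348 to 69591873 in mm10) stood at 8.47, 6.77 and 7.47 CPM in LP KO and 62.8, 68.6 and 142 CPM in LP WT. In basal cells it stood at 34.3, 17.5 and 12.6 CPM in KO and 54.3, 73.7 and 83.3 CPM in WT, so that the genotypes did not overlap in either population. The log2 fold change was -3.59 in LP and -1.71 in basal cells (edgeR adjusted p = 0.00023 and 0.0241), and their difference missed the threshold of 0.05 (log2 difference -1.68, SE 0.39, adjusted p = 0.0572). It was called in 7 of 18 other settings, DESeq2 and limma voom with a fixed block among them (adjusted p over the 18 from 0.00202 to 0.182). The labels leave KO mice 1 undeleted Trp53 copy, and the LP KO level lay further below LP WT than the loss of 1 of 2 equally active copies would put it. Trp53 counts cover the whole gene and no source here names its deleted exons, so they do not tell the state of either copy. The cause of the low level was not tested. Brca2 (gene 12190, chromosome 5, 150522297 to 150570147) averaged 17.4 ± 6.70 CPM in LP KO against 24.4 ± 9.13 in LP WT. Means in basal cells were 7.10 ± 2.66 CPM in KO and 12.2 ± 7.08 CPM in WT (log2 difference 0.13, SE 0.45, adjusted p = 0.912). Its counts cover the whole gene and no source here names the deleted exons, so the value does not check the Brca2 label. Krt5 averaged 3.60 ± 2.52 and 2.45 ± 0.777 CPM in LP KO and WT, against 1525 ± 166 and 1764 ± 12.3 CPM in basal KO and WT. Elf5 averaged 408 ± 182 and 375 ± 200.1 CPM in LP KO and WT, against 7.80 ± 4.53 and 2.12 ± 0.861 CPM in basal KO and WT. Total counts were 22.42 M to 32.72 M in LP KO and 9.29 M to 16.17 M in LP WT, without overlap, and 14.15 M to 39.19 M in basal KO and 12.08 M to 33.49 M in basal WT.

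The KO effect depended on the population for 280 of 15874 genes tested. It was more positive in LP for 107 genes (0.674% of those tested) and more negative in LP for 173 genes (1.09%), out of 2574 genes at an unadjusted p below 0.05. The KO effect itself went both ways in LP, where 1018 genes rose (6.41%) and 684 fell (4.31%). In basal cells it ran almost wholly upward, with 394 genes higher (2.48%) and 10 lower (0.063%). These shares of all genes tested are the background for the counts of list members given below. Placed by these calls, 95 of the 107 genes rose in LP without a call in basal cells, and 12 had no call in either. Of the 173 genes, 56 rose in basal cells without a call in LP, 61 fell in LP without a call in basal cells, and 8 fell in LP while rising in basal cells. Another 16 rose in both populations, by more in basal cells, and 32 had no call in either.

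At the median, the populations were less far apart in KO than in WT mice for both sets of genes. Both sets were picked by how much the LP minus basal difference changed between KO and WT mice, so that change itself is no result. The 107 genes had a median LP minus basal difference of -1.03 (log2) in KO mice and -3.79 in WT mice. At the median they were thus higher in basal cells of WT mice, which does not hold for each of them. The 173 genes had a median LP minus basal difference of 1.06 in KO mice and 3.97 in WT mice. Over all genes tested these medians were 0.022 in KO and -0.021 in WT mice. An exception was the 61 genes called down in LP alone, which had medians of -1.62 in KO and 0.95 in WT mice. The calls rest on few mice. Without WT mouse 2 the 107 and 173 became 26 and 37, and without KO mouse 1 they became 51 and 104. Without KO mouse 2, KO mouse 3 or WT mouse 1 the 173 became 98, 110 and 97. Of the counts within LP, the 1018 rises became 505, 593 and 323 without KO mouse 1, KO mouse 3 and WT mouse 2, and the 684 falls became 166, 366, 244 and 115 without KO mice 1, 2 and 3 and WT mouse 2. The 394 rises in basal cells became 244, 235 and 209 without KO mouse 2, KO mouse 3 and WT mouse 2, and the 10 falls became 5, 0, 23, 1 and 5 without KO mouse 1, KO mouse 2, WT mouse 1, WT mouse 2 and WT mouse 3.

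**Figure D1:**
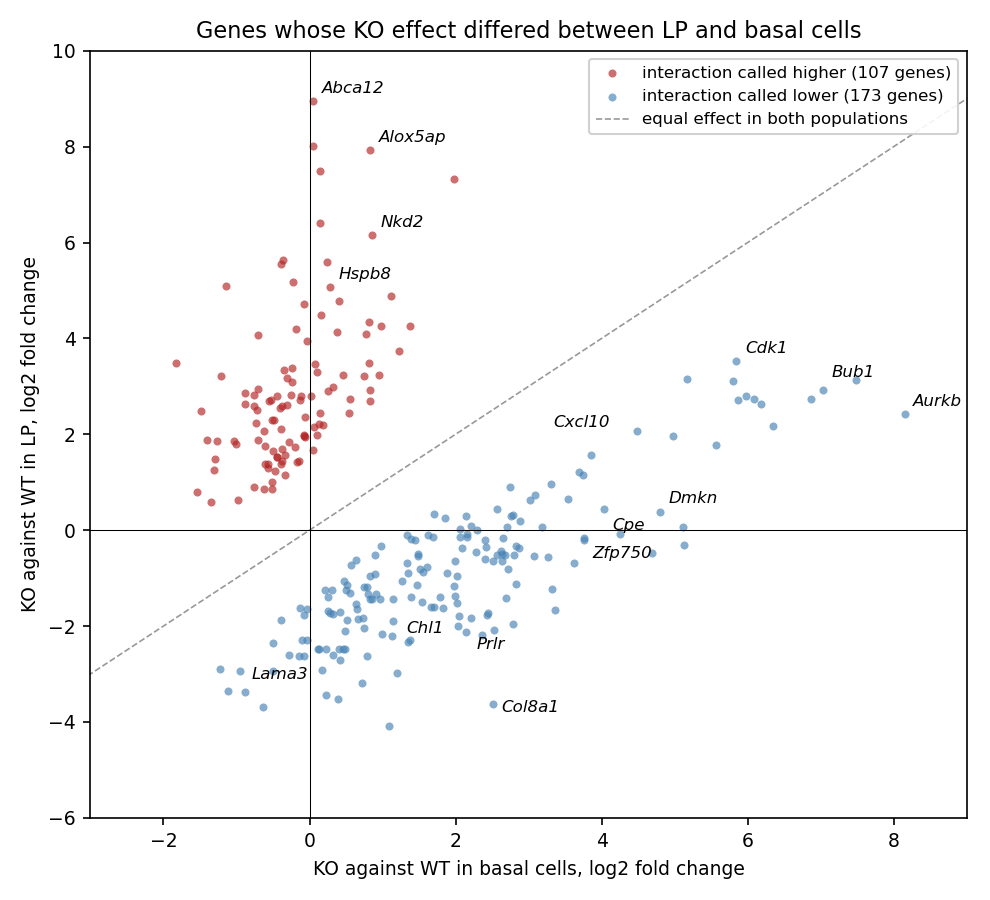
KO effect in basal cells (horizontal axis, log2 KO over WT) and in LP (vertical axis, log2 KO over WT) for the 280 genes whose effect differed between the populations, each point 1 gene. The 107 genes called higher lie near 0 in basal cells and above 0 in LP, and the 173 genes called lower spread from falls in LP to rises in basal cells, with Cdk1, Bub1 and Aurkb rising in both.

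80 of the 173 genes rose in basal cells, and most of those named here were luminal in WT mice. Cpe, a carboxypeptidase that trims peptide hormones (gene 12876, chromosome 8, 64592542 to 64693109), was at 71.9, 98.7 and 80.6 CPM in LP KO and 91.7, 31.6 and 60.8 CPM in LP WT. Basal cells had 74.8, 90.1 and 85.6 CPM in KO and 6.23, 3.99 and 5.04 CPM in WT, so that basal KO cells reached the LP level and basal WT cells stayed far below it. The basal rise was 4.04 on the log2 scale (adjusted p = 2.3e-05), LP was not called (adjusted p = 0.374), and the effects differed (log2 difference -3.49, SE 0.32, adjusted p = 0.00177). Dmkn, which encodes dermokine, a secreted protein of differentiating epidermis, had 35.2, 25.8 and 64.2 CPM in LP KO and 52.3, 14.2 and 29.3 CPM in LP WT. Its basal levels were 36.7, 40.2 and 37.8 CPM in KO and 2.52, 0.737 and 0.796 CPM in WT (log2 difference -4.53, SE 0.45, adjusted p = 0.00208). Hpgd, the enzyme that inactivates prostaglandins, stood at 5.04, 16.4 and 15.6 CPM in LP KO and 5.55, 11.7 and 17.8 CPM in LP WT. In basal cells Hpgd had 8.85, 23.1 and 25.6 CPM in KO, all above the 0.742, 0.335 and 0.619 CPM of WT (log2 difference -4.92, SE 0.55, adjusted p = 0.0034).

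Areg encodes amphiregulin, the epidermal growth factor receptor ligand through which estrogen drives duct growth. It stood at 47.7, 107 and 52.5 CPM in LP KO and 113, 132 and 60.9 CPM in LP WT, groups that overlapped. Basal cells had 70.4, 59.5 and 62.3 CPM in KO and 13.7, 3.79 and 2.39 CPM in WT, with no overlap (log2 difference -4.24, SE 0.56, adjusted p = 0.00613). A pair of transcription factors of epithelial differentiation stayed far higher in LP than in basal cells of KO mice. Zfp750 had 50.3, 68.4 and 87.5 CPM in LP KO and 55.2, 83.1 and 97.6 CPM in LP WT, beside 4.14, 9.34 and 7.36 CPM in basal KO and 0.346, 0.637 and 0.531 CPM in basal WT (log2 difference -3.89, SE 0.37, adjusted p = 0.00203). Ehf, an ETS family member, averaged 417 ± 58.2 CPM in LP KO against 482 ± 131 in LP WT. Basal levels averaged 17.6 ± 6.07 CPM in KO and 3.38 ± 1.23 in WT, a log2 difference of effects of -2.57 (SE 0.35, adjusted p = 0.00613). Ramp1, a partner of the calcitonin receptor-like receptor, and Col9a1, a chain of type IX collagen, ended up higher in basal than in LP cells of KO mice. Ramp1 averaged 15.2 ± 7.81 CPM in LP KO against 26.5 ± 4.60 in LP WT. Among basal libraries the means were 34.2 ± 11.6 CPM in KO and 5.19 ± 0.464 in WT. Col9a1 averaged 27.2 ± 11.2 CPM in LP KO against 41.3 ± 9.65 in LP WT. Basal cells averaged 62.8 ± 32.3 CPM in KO and 11.8 ± 1.98 CPM in WT (adjusted p = 0.00208 for either difference of effects). These 8 genes, from Cpe to Col9a1, rose in basal cells with no call in LP, and their interaction calls held in each of the 18 other settings tried.

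**Figure D2:**
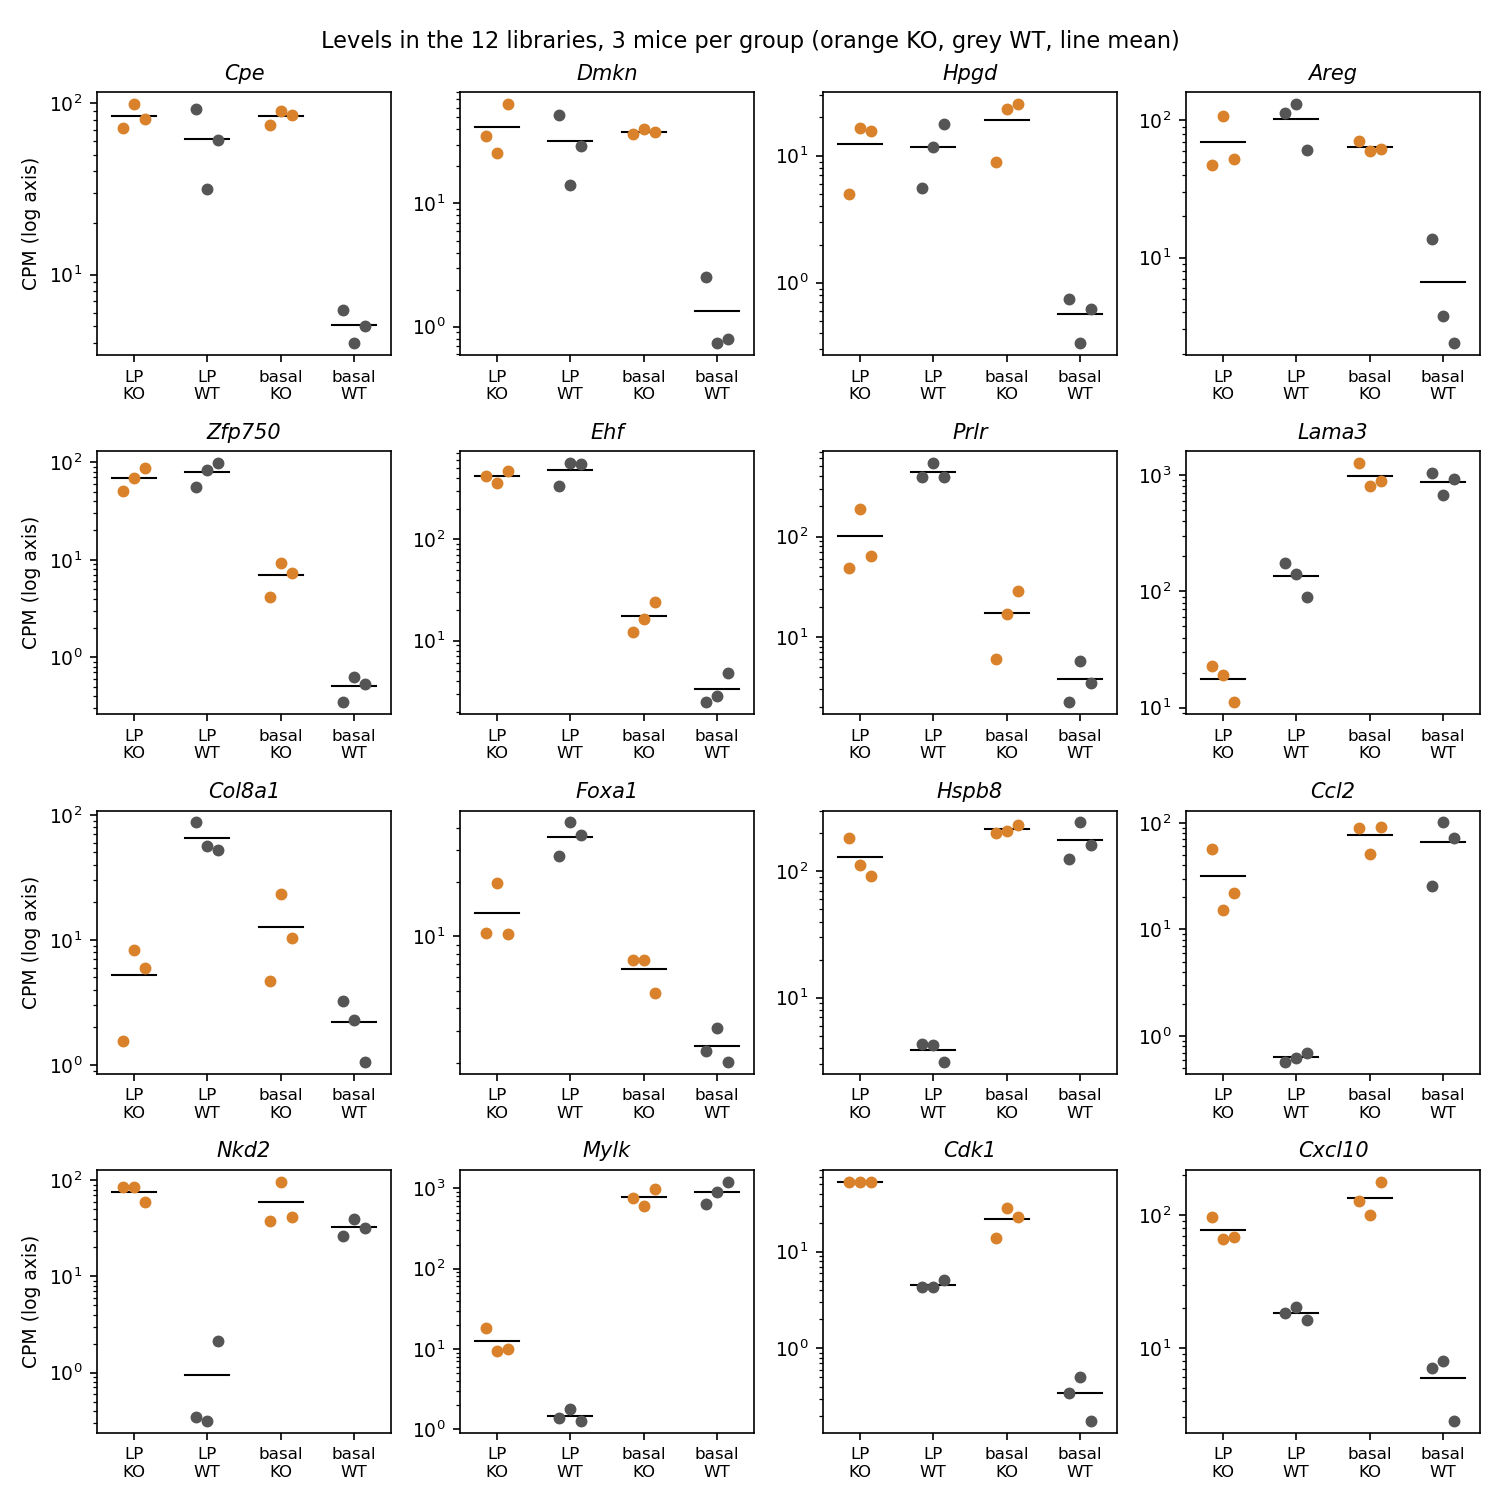
CPM (log axis) of 16 genes in each of the 12 libraries, orange for KO and grey for WT, with a line at the mean of 3 mice. Cpe, Dmkn, Hpgd and Areg in basal KO cells sit at the LP level, Hspb8, Ccl2 and Nkd2 in LP KO cells sit near the basal level, and Cdk1 and Cxcl10 are higher in KO in both populations.

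Kit, the receptor that defines LP, rose in basal cells at a level that stayed small beside that of LP. It had 463, 588 and 384 CPM in LP KO, 461, 787 and 805 CPM in LP WT, 5.54, 16.4 and 16.1 CPM in basal KO and 1.63, 1.64 and 2.83 CPM in basal WT (log2 difference -3.06, SE 0.48, adjusted p = 0.0112). Of 21 luminal progenitor identity genes tested, 5 were called lower (Ehf, Bmpr1b, Kit, Mfge8 and Prom1) and 0 higher, with a median of -1.36 against 0.013 for all genes, and 0 of the 21 had a positive value. Within basal cells 4 of the 21 rose and 0 fell, and within LP 0 rose and 6 fell. Over all genes 1.09% were called lower for the interaction, 2.48% rose in basal cells and 4.31% fell in LP. Among 19 luminal keratin and junction genes 5 were called lower, which were the claudins Cldn1, Cldn7 and Cldn8 and the tight junction proteins Ocln and Marveld2 (median -0.71). Within basal cells 6 of the 19 rose and 0 fell, and within LP 1 rose and 0 fell. Ocln, which seals the space between luminal cells, averaged 117 ± 32.1 CPM in LP KO against 169.7 ± 43.2 in LP WT. Basal libraries had 14.3, 9.79 and 8.93 CPM in KO and 4.997, 3.15 and 3.63 CPM in WT (log2 difference -2.03, SE 0.29, adjusted p = 0.00734). LP of both genotypes held far more Ocln than basal cells did. Cldn1 reached 96.3, 98.96 and 102 CPM in basal KO against 16.03, 5.13 and 4.34 in basal WT, while in LP it ran at 419, 443 and 323 CPM in KO and 557, 123 and 74.7 in WT. Of 14 ErbB receptor and ligand genes 3 were called lower, each of them a ligand (Areg, Epgn and Btc, median of the list -1.21), and 0 of the 14 had a positive value. Epgn, which encodes epigen, averaged 26.4 ± 6.40 CPM in LP KO against 19.5 ± 11.6 in LP WT. On average basal cells held 56.5 ± 5.94 CPM in KO and 9.48 ± 2.75 in WT. Without WT mouse 2 the calls of Kit, Ocln and Epgn were lost (adjusted p = 0.0679, 0.06 and 0.0568), that of Epgn also without KO mouse 1. Of the members named without values, Mfge8, Prom1, Cldn7, Cldn8, Marveld2 and Btc lost their calls without WT mouse 2 too (adjusted p = 0.139, 0.13, 0.0679, 0.0866, 0.177 and 0.22), and all of these but Cldn8 also without at least 3 other mice in turn. Over the 18 settings the adjusted p of Kit, Ocln and Epgn ran from 2.95e-07 to 0.0679, 2.01e-07 to 0.06 and 8.15e-06 to 0.0977, and that of Cldn1, lost without the block, from 2.65e-09 to 0.154.

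The keratins Krt8, Krt18 and Krt19 and the adhesion molecule Epcam were among the 13 of these 19 genes with no call in basal cells. Krt8 averaged 3777 ± 859 CPM in LP KO against 4940.0 ± 998 in LP WT. For basal cells the means were 382 ± 83.5 CPM in KO and 451 ± 118 in WT, a log2 difference of -0.17 (adjusted p = 0.850). Krt18 averaged 129 ± 14.7 CPM in basal KO against 111 ± 43.6 in basal WT, and Epcam 582 ± 162 against 645 ± 157 CPM (adjusted p of the KO effect in basal cells 0.958 and 0.974). Krt19 averaged 56.6 ± 3.17 CPM in basal KO against 34.3 ± 14.3 in basal WT (adjusted p = 0.598). The basal mean as a percentage of the LP mean differed from gene to gene. For Krt8 it was 10.1% in KO and 9.13% in WT mice, and for Krt19 3.29% and 1.14%. For Kit it was 2.65% in KO and 0.297% in WT mice, for Zfp750 10.1% and 0.641%, for Areg 92.8% and 6.48%, for Cpe 99.7% and 8.29%, and for Hpgd 155% and 4.85%. The part that luminal cells in the basal KO sort might have in these rises was not tested.

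**Figure D3:**
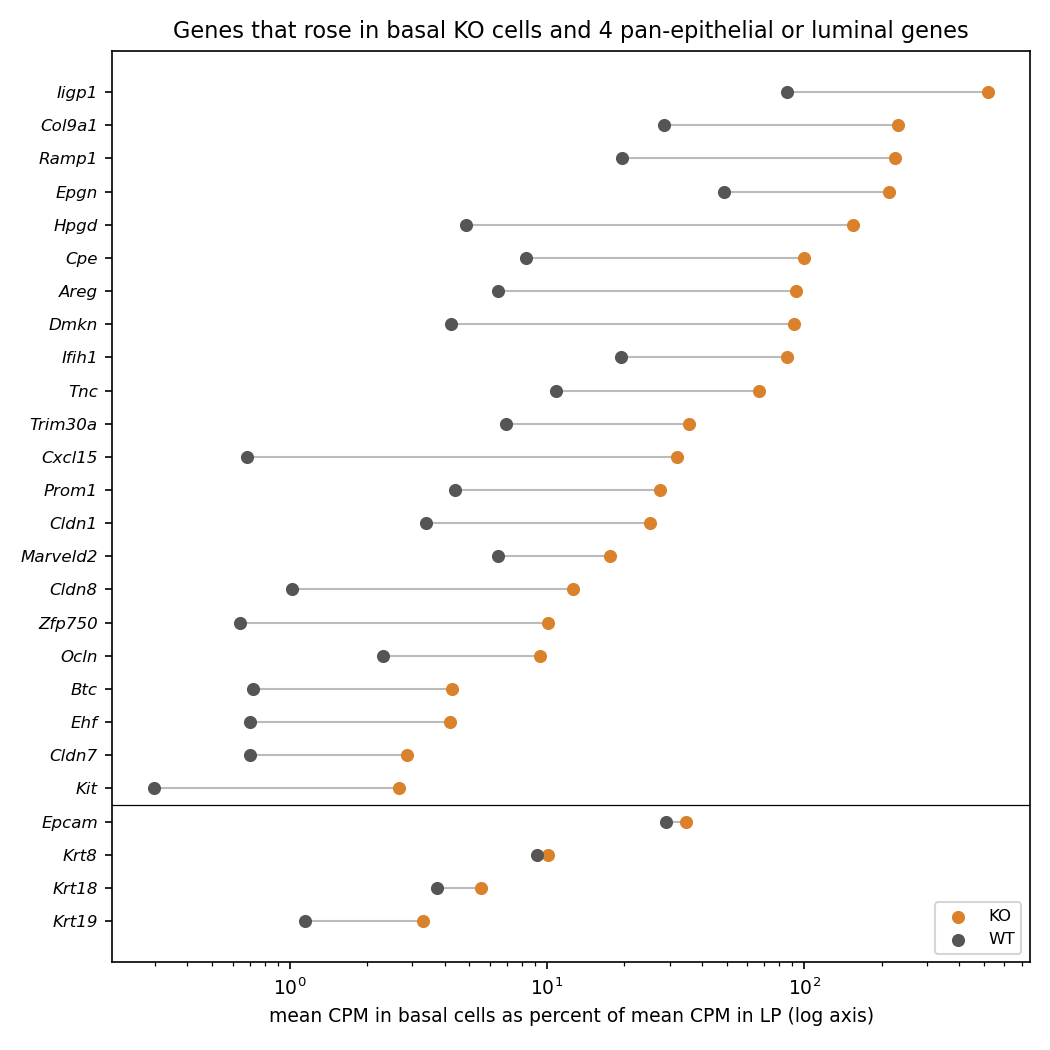
Mean CPM in basal cells as a percentage of mean CPM in LP (log axis), orange for KO and grey for WT mice, for named genes that rose in basal KO cells (above the line) and for Epcam, Krt8, Krt18 and Krt19 (below it). The KO values range from a few percent for Kit, Cldn7 and Ehf to over the LP level for Hpgd, Epgn, Ramp1, Col9a1 and Iigp1, and Krt8 lies at 10.1% in KO and 9.13% in WT mice.

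Other genes fell in LP with no call in basal cells. Lama3, the laminin alpha chain of epithelial basement membrane (gene 16774, chromosome 18, 12333417 to 12583013), had 22.9, 19.1 and 11.1 CPM in LP KO and 174, 141 and 88.9 CPM in LP WT. Its basal levels overlapped, at 1259.7, 805 and 888 CPM in KO and 1036, 672 and 916 CPM in WT. The effects were -2.93 (log2) in LP and 0.17 in basal cells (adjusted p = 0.00033 and 0.97), with a difference of -3.10 (SE 0.39, adjusted p = 0.00613). Prlr, the prolactin receptor, stood at 48.2, 189 and 63.8 CPM in LP KO and 392, 538 and 392 CPM in LP WT, with no overlap. Basal cells had 6.003, 16.8 and 28.5 CPM in KO and 2.23, 5.76 and 3.45 CPM in WT, which did not overlap either (log2 difference -4.36, SE 0.57, adjusted p = 0.00613). The Prlr effect was -2.13 (log2) in LP and 2.14 in basal cells, where it missed the threshold (edgeR adjusted p = 0.0259 and 0.0689). Bmpr1b, a receptor for bone morphogenetic proteins, had 0.351, 1.12 and 0.734 CPM in LP KO and 3.58, 8.20 and 5.90 CPM in LP WT. Its basal levels were 3.16, 2.90 and 5.86 CPM in KO and 0.495, 3.35 and 1.15 CPM in WT, which overlapped (log2 difference -4.52, SE 0.69, adjusted p = 0.0104). Clic6, of the chloride intracellular channel family, averaged 73.3 ± 38.6 CPM in LP KO against 304 ± 131 in LP WT. Basal cells averaged 3.53 ± 2.12 CPM in KO and 2.06 ± 0.639 CPM in WT (log2 difference -2.76, SE 0.30, adjusted p = 0.00335). The Clic6 call was lost without the mouse block (adjusted p over 18 settings 6.29e-11 to 0.091), and those of Lama3, Prlr and Bmpr1b held in all 18.

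Of 21 mature luminal identity genes 7 were called lower and 0 higher (Prlr, Areg, Foxa1, Tph1, Ptn, Prom1 and Cited1, median -2.02). Within LP 7 of the 21 fell and 0 rose, and within basal cells 4 rose and 0 fell. Of all genes 4.31% fell in LP, 2.48% rose in basal cells and 1.09% were called lower for the interaction. Tph1, which makes serotonin, averaged 4.71 ± 2.48 CPM in LP KO against 18.8 ± 2.10 in LP WT. Its basal means were 1.12 ± 0.275 CPM in KO and 0.299 ± 0.218 CPM in WT (log2 difference -4.16, SE 0.61, adjusted p = 0.0084). Of 21 milk and secretory genes 5 were called lower and 0 higher (Csn3, Csn1s2a, Btn1a1, Mfge8 and Csn1s1, median -1.81). Btn1a1, the butyrophilin of milk fat globules, fell to 104, 253 and 214 CPM in LP KO against 625, 1454 and 481 CPM in LP WT (adjusted p = 0.0203), beside basal means of 7.15 ± 4.62 CPM in KO and 3.60 ± 0.567 CPM in WT. The casein Csn1s2a varied most among WT mice, at 18.6, 926 and 2298 CPM in LP WT and 0.198, 2.58 and 21.3 CPM in basal WT, low in both populations of WT mouse 1. In KO mice it stood at 488, 719 and 1043 CPM in LP and 21.9, 73.5 and 42.1 CPM in basal cells. The LP minus basal difference of Csn1s2a was 4.47, 3.29 and 4.63 (log2) in KO mice and 6.40, 8.47 and 6.75 in WT mice. Without WT mouse 2 the calls of Tph1, Btn1a1 and Csn1s2a were lost (adjusted p = 0.0579, 0.0869 and 0.0887), that of Btn1a1 also without KO mouse 2, and the ranges over the 18 settings were 7.15e-07 to 0.0579, 6.47e-06 to 0.0869 and 2.05e-06 to 0.459. Ptn, Cited1, Csn3 and Csn1s1 lost theirs without WT mouse 2 as well (adjusted p = 0.1, 0.099, 0.0664 and 0.182), and all but Csn3 also without 3 or more other mice in turn.

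Among 27 immediate early genes, which cells switch on within minutes of a stimulus, 3 were called lower (Fosb, Jun and Klf6) and 1 higher (Ccn2), and 24 had a negative value (median -0.71). Fosb stood at 785, 1159.5 and 944 CPM in LP KO, all below the 2953, 11190.0 and 7960.0 CPM of LP WT. In basal cells it stood at 1679, 1527 and 2054 CPM in KO and 1069, 4181 and 4896 CPM in WT, which overlapped. Ccn2, a secreted target of the YAP pathway, went the other way, with 350.4, 281 and 266 CPM in LP KO against 101, 118 and 143 in LP WT and 465, 602 and 802 CPM in basal KO against 985, 772 and 1009 in basal WT. These genes also respond to tissue dissociation, of which no measure is at hand. The calls of Fosb and Ccn2 (adjusted p = 0.0241 and 0.0286) were lost without KO mouse 1, WT mouse 1 or WT mouse 2 (adjusted p = 0.126 and 0.103 without WT mouse 2), that of Fosb also without KO mouse 3, and that of Ccn2 also without KO mouse 2 or WT mouse 3. Over the 18 settings they ran from 6.03e-06 to 0.246 and from 0.000239 to 0.103. Jun was lost without any 1 mouse but WT mouse 3, and Klf6 without any 1 mouse (adjusted p = 0.0408 and 0.0448, up to 0.242 and 0.231).

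For 8 genes the KO effect was called in opposite directions, down in LP and up in basal cells. These single calls were weaker than those of the difference for several genes. Their edgeR adjusted p ran from 0.00316 (Col8a1) to 0.0383 (Chl1) in LP. In basal cells it ran from 0.0086 (Egflam) to 0.0457 (Foxa1), with 0.0433 for Col8a1. The p-values and settings given below are those of the difference. Col8a1, a chain of type VIII collagen (gene 12837, chromosome 16, 57624256 to 57754737), had the lowest p of the whole comparison. It stood at 1.56, 8.26 and 5.90 CPM in LP KO and 86.9, 55.9 and 52.7 CPM in LP WT, and at 4.71, 23.1 and 10.4 CPM in basal KO and 3.22, 2.28 and 1.06 CPM in basal WT. Neither pair overlapped, and basal cells had more Col8a1 than LP in each of the 3 KO mice and less in each of the 3 WT mice (log2 difference -6.22, SE 0.41, adjusted p = 0.00017). Foxa1, the factor that opens chromatin for the estrogen receptor, stood at 10.4, 19.8 and 10.3 CPM in LP KO and 27.8, 42.7 and 36.4 CPM in LP WT. Basal cells had 7.45, 7.45 and 4.84 CPM in KO and 2.33, 3.12 and 2.03 CPM in WT (log2 difference -2.83, SE 0.39, adjusted p = 0.00637). Chl1, a cell adhesion molecule of the L1 family, averaged 1.42 ± 0.759 CPM in LP KO against 5.06 ± 2.78 in LP WT. The basal means were 41.9 ± 8.36 CPM in KO and 10.1 ± 4.91 in WT (log2 difference -3.87, SE 0.44, adjusted p = 0.0034). Egflam, the matrix protein pikachurin, averaged 2.76 ± 1.15 CPM in LP KO against 9.20 ± 1.80 in LP WT. In basal cells the means were 8.12 ± 2.57 CPM in KO and 1.46 ± 0.852 in WT (log2 difference -4.32, SE 0.55, adjusted p = 0.00613). The 4 named last in this class were Flrt3, Kcnd2, Itgb6 and Spon1, chosen after their values were seen, with differences of -2.26, -4.70, -2.63 and -3.16. Flrt3, a membrane protein that binds fibroblast growth factor receptors, averaged 50.8 ± 6.91 CPM in LP KO against 105 ± 18.8 in LP WT. Basal cells averaged 102 ± 33.9 CPM in KO and 42.6 ± 2.000 CPM in WT (adjusted p = 0.00613). Kcnd2, a potassium channel, averaged 3.71 ± 1.10 CPM in LP KO against 15.7 ± 4.14 in LP WT. Means in basal cells were 0.810 ± 0.222 CPM in KO and 0.134 ± 0.0985 CPM in WT. Itgb6, an integrin chain of epithelia, averaged 11.3 ± 0.246 CPM in LP KO against 24.9 ± 5.62 in LP WT. Basal levels averaged 4.43 ± 0.296 CPM in KO and 1.64 ± 0.654 in WT. Spon1, a secreted matrix protein, averaged 3.92 ± 0.364 CPM in LP KO against 11.9 ± 1.45 in LP WT. Among basal libraries the means were 6.35 ± 3.22 CPM in KO and 1.94 ± 0.00888 in WT. Of the 8 genes, Col8a1, Chl1, Egflam, Flrt3 and Spon1 had a higher mean in basal than in LP cells of KO mice, and Chl1 had it in WT mice too. Kcnd2, Itgb6 and Spon1 lost their call without WT mouse 2 (adjusted p = 0.0728, 0.123 and 0.0908). Itgb6 lost it also without KO mouse 1, KO mouse 2 or WT mouse 1, and Spon1 without KO mouse 2, KO mouse 3 or WT mouse 1, and the 3 ran from 3.53e-06 to 0.0728, 4.05e-05 to 0.123 and 1.89e-05 to 0.0908 over the 18 settings.

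Of the 107 genes with a more positive effect in LP, 95 rose in LP, and most of those named here were basal genes in WT mice. Hspb8, a small heat shock protein that works with the cochaperone Bag3 (gene 80888, chromosome 5, 116408491 to 116422864), stood at 184, 112 and 91.2 CPM in LP KO and 4.27, 4.20 and 3.13 CPM in LP WT. Basal cells had 199.7, 209.7 and 232 CPM in KO and 124, 243 and 162 CPM in WT, which overlapped. The effect was 5.07 (log2) in LP and 0.28 in basal cells (adjusted p = 5e-06 and 0.915), a difference of 4.69 (SE 0.41, adjusted p = 0.00172). Nkd2, a Wnt inhibitor that binds Dishevelled, stood at 84.1, 84.6 and 59.7 CPM in LP KO and 0.347, 0.315 and 2.14 CPM in LP WT. Its basal levels were 38.1, 96.6 and 41.99 CPM in KO and 26.5, 39.7 and 31.6 CPM in WT (log2 difference 5.63, SE 0.65, adjusted p = 0.0034). Ccl2, a chemokine that draws monocytes, had 56.96, 15.3 and 22.1 CPM in LP KO and 0.578, 0.630 and 0.695 CPM in LP WT. In basal cells Ccl2 stood at 89.7, 51.2 and 91.96 CPM in KO and 25.4, 101 and 71.2 CPM in WT, which overlapped (log2 difference 5.11, SE 0.53, adjusted p = 0.00208).

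Several of these genes stayed lower in LP than in basal cells of KO mice. Arhgef39, a guanine nucleotide exchange factor, averaged 8.55 ± 1.60 CPM in LP KO against 0.888 ± 0.734 in LP WT. Basal libraries averaged 62.2 ± 10.5 CPM in KO and 73.7 ± 14.5 CPM in WT (log2 difference 3.69, SE 0.42, adjusted p = 0.0034). Mylk, the kinase that starts smooth muscle contraction, averaged 12.6 ± 5.04 CPM in LP KO against 1.48 ± 0.269 in LP WT. On average basal cells held 775 ± 184 CPM in KO and 914 ± 289 in WT. It was the 1 of 18 myoepithelial contraction genes called higher (log2 difference 3.29, SE 0.44, adjusted p = 0.00613), and 0 were called lower. Col6a2, a chain of type VI collagen, averaged 5.51 ± 1.53 CPM in LP KO against 0.660 ± 0.641 in LP WT. For basal cells the means were 22.1 ± 8.56 CPM in KO and 51.4 ± 12.6 in WT (log2 difference 4.58, SE 0.68, adjusted p = 0.00876). Angptl2, a secreted angiopoietin-like protein, averaged 6.33 ± 1.65 CPM in LP KO against 0.808 ± 0.461 in LP WT. Basal cells averaged 42.8 ± 10.3 CPM in KO and 78.7 ± 33.9 CPM in WT (adjusted p = 0.00428). Micall2 and Fam189a2 crossed over, with LP means of 27.9 ± 7.04 and 23.5 ± 5.80 CPM in KO against 7.55 ± 2.79 and 2.24 ± 1.35 in WT, and basal means of 10.8 ± 2.62 and 11.3 ± 1.52 CPM in KO against 17.8 ± 7.77 and 14.5 ± 6.45 in WT (adjusted p = 0.00613 and 0.00613). The 9 genes from Hspb8 to Fam189a2 held their calls in all 18 settings. Csf1, the growth factor of macrophages, stood at 434, 138 and 97.4 CPM in LP KO against 50.5, 37.4 and 48.2 in LP WT. Basal levels were 974, 470.5 and 234 CPM in KO and 1474, 518 and 399 in WT (log2 difference 2.50, SE 0.45, adjusted p = 0.0221). It was higher in mouse 1 of each genotype than in mice 2 and 3 in all 4 groups, and lost its call without KO mouse 1, WT mouse 2 or the block (up to 0.209).

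Some genes were almost unread in LP WT, and their folds are bounds or counting ratios. Abca12, the lipid transporter of the skin barrier, had 65, 134 and 73 reads in LP KO and 0 in each LP WT library, which puts it at least 38.7-fold higher in LP KO (floor of 3 counts over the group). Its basal means were 4.96 ± 0.384 CPM in KO and 4.80 ± 1.03 CPM in WT, and the difference of effects was called (adjusted p = 0.00761). Alox5ap, which hands arachidonic acid to the leukotriene pathway, had 1364 reads in LP KO and 2 in LP WT, a ratio of 291 (95% counting interval 80.5 to 2407). Rnf165, a ubiquitin ligase gene, had 503 reads in LP KO and 2 in LP WT, a ratio of 107 (29.6 to 889), and its call held in all 18 settings. Gask1b, a Golgi protein, had 26, 34 and 36 reads in LP KO and 0 in each LP WT library, at least 13.7-fold higher, with basal means of 16.04 ± 7.36 CPM in KO and 14.5 ± 7.94 CPM in WT. Without WT mouse 2 the calls of Alox5ap and Gask1b were lost (adjusted p = 0.0916 and 0.0819, against 0.016 and 0.0179 with all mice), and over the 18 settings they ran from 9.21e-06 to 0.0916 and 0.000764 to 0.0819.

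**Figure D4:**
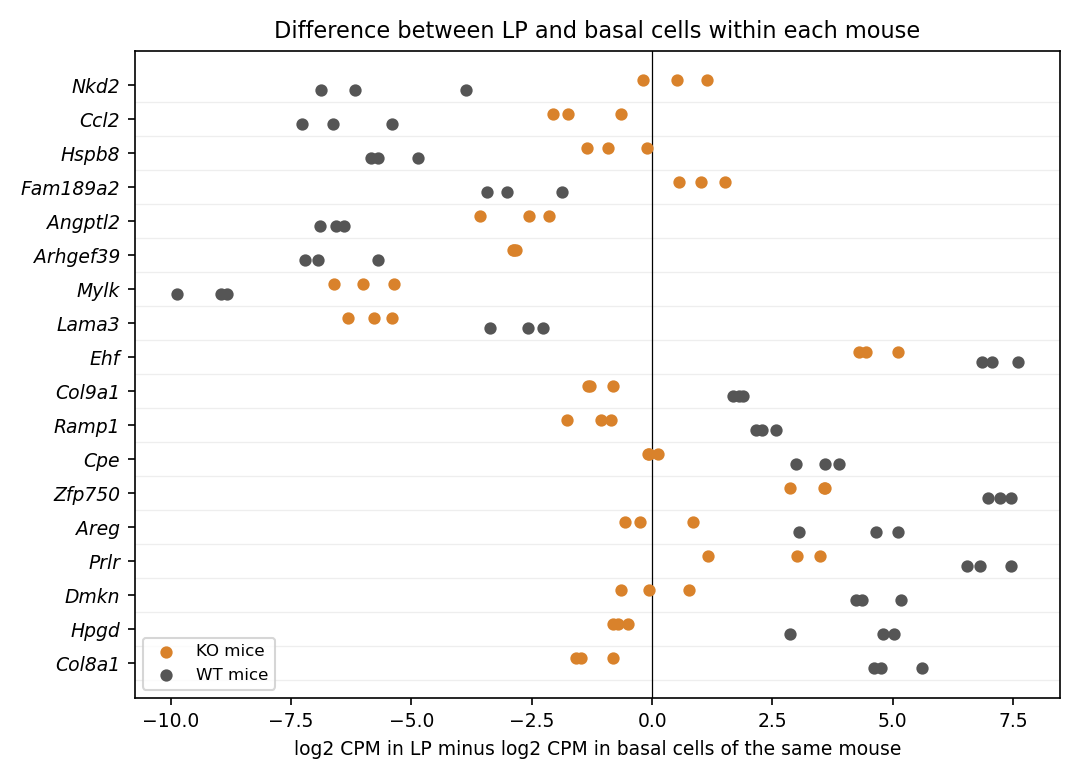
Difference between log2 CPM in LP and log2 CPM in basal cells of the same mouse for 18 named genes, 3 KO mice (orange, upper row of each gene) and 3 WT mice (grey, lower row). The genes shown were picked without overlap between the genotypes, so their separation is no result. For Cpe, Dmkn, Areg and Nkd2 the KO mice lie around 0.

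The basal keratins Krt5 and Krt14 and the actin Acta2 had no call in LP. Krt5 averaged 3.60 ± 2.52 CPM in LP KO against 2.45 ± 0.777 in LP WT, and Acta2, smooth muscle actin, 7.03 ± 5.83 against 7.45 ± 2.02 CPM (adjusted p of the KO effect in LP 0.397 and 0.915). Krt14 averaged 33.00 ± 15.9 CPM in LP KO against 11.9 ± 6.64 in LP WT (adjusted p = 0.0577). As a percentage of the basal mean, the LP mean of Krt5 was 0.236% in KO and 0.139% in WT mice, that of Mylk 1.63% and 0.162%, that of Hspb8 60.3% and 2.19%, and that of Nkd2 129% and 2.87%. Trp63 averaged 2.61 ± 0.945 CPM in LP KO against 0.902 ± 0.322 in LP WT (edgeR adjusted p = 0.0728). Of 22 basal identity genes 1 was called for the interaction, the Wnt receptor Lgr5, and it was called lower. Most of the list lay on the other side of 0, with 16 positive and 6 negative values (median 0.39). At an unadjusted p below 0.05, 6 were higher and 2 lower, and DESeq2 called 2 higher and 1 lower. Within LP 2 of the 22 rose and 2 fell, and within basal cells 1 rose and 0 fell. Of the 18 myoepithelial contraction genes 1 rose and 1 fell in LP, and 0 rose and 0 fell in basal cells. Over all genes 6.41% rose and 4.31% fell in LP, and 2.48% rose in basal cells. Lgr5 had 0.0781, 0.156 and 0.191 CPM in LP KO against 1.27, 3.89 and 0.868 in LP WT. Basal levels were 91.03, 112 and 69.1 CPM in KO and 139, 146 and 138 in WT, and its call was lost in 10 of 18 settings (adjusted p 0.00139 to 0.164), among them without KO mouse 1, 2 or 3 or WT mouse 1 or 2.

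Of 10 class II antigen presentation genes 5 rose in LP and 0 in basal cells, beside 6.41% and 2.48% of all genes. Cd74, the invariant chain, stood at 124, 21.9 and 175 CPM in LP KO and 5.31, 5.25 and 6.19 CPM in LP WT, and at 165, 26.00 and 39.7 CPM in basal KO and 17.5, 35.2 and 64.6 CPM in basal WT (log2 difference 3.10, SE 0.68, adjusted p = 0.0473). LP WT held the lowest Cd74 levels of the 4 groups. Cd74 and the protease Ctss were the 2 of these 10 genes called higher, with 0 lower and a list median of 1.40. The macrophage marker Csf1r, also called higher (adjusted p = 0.0461), averaged 4.51 ± 2.71 CPM in LP KO against 0.719 ± 0.481 in LP WT. Means in basal cells were 1.37 ± 0.586 CPM in KO and 1.78 ± 0.216 CPM in WT. All 13 macrophage and dendritic cell markers summed to 17.7 to 65.0 CPM in LP KO and 8.28 to 17.2 in LP WT, and to 12.5 to 17.8 CPM in basal KO and 12.3 to 17.4 in basal WT. LP of KO mouse 3 held the high value, and of 8 markers tested Csf1r was the 1 called. The 7 general leukocyte markers summed to 5.10 to 22.7 CPM in LP KO and 1.68 to 2.89 in LP WT, and to 26.2 to 30.1 in basal KO and 6.11 to 13.3 in basal WT. Of 4 general leukocyte markers tested, 3 rose in LP and 0 in basal cells. The part of such cells in the calls of Cd74, Ctss, Csf1r and Alox5ap was not tested, and the call of Cd74 was lost without WT mouse 2 or 3 and that of Ctss without KO mouse 1 or 3 or any 1 WT mouse (adjusted p = 0.171 and 0.103 without WT mouse 2, up to 0.181 and 0.179 over the 18 settings). The lists for lymphocytes, leukocytes at large, fibroblasts, endothelium, pericytes, adipocytes, erythrocytes, skeletal muscle, and Schwann cells and melanocytes had 0 members called by edgeR for the interaction. At an unadjusted p below 0.05 each had at most 2 higher and 1 lower. Few members were tested in some, namely 2 of 15 lymphocyte, 4 of 7 leukocyte, 4 of 9 adipocyte, 4 of 7 erythrocyte and 4 of 8 skeletal muscle markers. The 2 higher were leukocyte markers, and all 4 tested there had a positive value (median 1.89). The 4 erythrocyte markers were positive as well (median 1.25). DESeq2 called 1 fibroblast and 1 endothelial gene lower and 1 erythrocyte gene higher, and limma voom 1 Schwann cell or melanocyte gene lower. Of these lists other than leukocytes, edgeR called 1 erythrocyte and 1 pericyte gene as rising and 1 endothelial gene as falling in LP, and 1 fibroblast gene and 1 Schwann cell or melanocyte gene as rising in basal cells. Fibroblast markers summed to 158 to 233 CPM in LP KO and 131 to 290 in LP WT, and to 1145 to 1270 in basal KO and 959 to 1330 in basal WT.

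Most mitosis genes rose in both populations, and DNA replication genes did so less broadly. Of 40 mitosis genes 38 rose in LP and 37 in basal cells (against 6.41% and 2.48% of all genes), with median log2 effects of 2.90 and 3.79. For the interaction 5 of the 40 were called lower (Aurkb, Bub1, Anln, Kif18b and Cdk1) and 0 higher (median -1.20). Cdk1, the main kinase of mitotic entry (gene 12534, chromosome 10, 69335146 to 69352912), was chosen after its values were seen. It stood at 52.2, 52.6 and 53.2 CPM in LP KO and 4.27, 4.31 and 5.04 CPM in LP WT, and at 13.9, 28.4 and 22.8 CPM in basal KO and 0.346, 0.503 and 0.177 CPM in basal WT. LP kept the higher level in both genotypes, and the wider gap between genotypes in basal cells came with the lower basal WT level. The effects were 3.53 in LP and 5.85 in basal cells (log2), a difference of -2.28 (SE 0.48, adjusted p = 0.0425). Bub1, a spindle checkpoint kinase, averaged 27.4 ± 4.69 CPM in LP KO against 3.55 ± 1.22 in LP WT. The basal means were 12.9 ± 5.41 CPM in KO and 0.0723 ± 0.0861 in WT (log2 difference -3.89, SE 0.74, adjusted p = 0.027). Aurkb, the Aurora B kinase, averaged 17.7 ± 0.643 CPM in LP KO against 3.34 ± 1.64 in LP WT. In basal cells Aurkb had 50, 456 and 65 reads in KO mice 1, 2 and 3 and 1 read in WT, a ratio of 519 (95% counting interval 92.8 to 20530). The ratio was 218 without KO mouse 2 and 265 without WT mouse 2, and at least 115-fold without WT mouse 1, which held the 1 read. Of 40 DNA replication genes 10 rose in LP and 8 in basal cells, with median log2 effects of 0.97 and 1.04. Pclaf, a partner of the replication clamp, was the 1 of these 40 called for the interaction, at 39.9 ± 4.02 CPM in LP KO against 5.92 ± 3.24 in LP WT. In basal cells the means were 14.5 ± 8.47 CPM in KO and 0.128 ± 0.152 in WT (log2 difference -3.90, SE 0.69, adjusted p = 0.0201). The call of Cdk1 was lost without KO mouse 2 or 3 or any 1 WT mouse, that of Bub1 without KO mouse 2 or 3 or WT mouse 1, that of Aurkb without WT mouse 1 or 2 and that of Pclaf without WT mouse 2. Anln and Kif18b lost theirs without KO mouse 2, WT mouse 1 or WT mouse 2, and Kif18b also without KO mouse 3 or WT mouse 3 (adjusted p up to 0.104 and 0.143). For Cdk1, Bub1, Aurkb and Pclaf the adjusted p over the 18 settings ran from 0.00149 to 0.117, 0.000384 to 0.0781, 0.000739 to 0.103 and 4.46e-05 to 0.0664.

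The promoter of Cdk1 is printed because the mitosis genes moved together and share a known promoter element, the cell cycle genes homology region (CHR), searched here as TTTGAA or TTTAAA on both strands. Among the genes called lower for the interaction, 16 were called as rising in both populations. They were Shcbp1, Kntc1, Pclaf, Pbk, Iqgap3, Aurkb, Bub1, Anln, Racgap1, Kif18b, Cdk1, Neil3, Ncapg and Psrc1, with the interferon-stimulated genes Cxcl10 and Rsad2. The 250 bases before the start of Cdk1 (RefSeq, GRCm38.p6, chr10:69352913-69353162, minus strand, 5′ to 3′) hold it at positions -71 and -15, shown in capitals.
Cdk1: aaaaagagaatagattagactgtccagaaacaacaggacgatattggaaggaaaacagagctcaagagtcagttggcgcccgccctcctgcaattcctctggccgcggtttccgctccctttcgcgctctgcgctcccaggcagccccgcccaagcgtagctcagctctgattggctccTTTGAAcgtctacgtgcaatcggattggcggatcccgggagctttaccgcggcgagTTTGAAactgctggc
Of the mitosis genes with a promoter sequence, 84.4% held a CHR in the 300 bases searched, against 19.4% of all genes tested. For the 16 genes called lower that rose in both populations the share was 61.5% (13 had a sequence). Among the genes called higher the share was 13.9% and among all genes called lower it was 27.9%.

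Of 48 interferon-stimulated genes 27 rose in LP and 23 in basal cells, beside 6.41% and 2.48% of all genes. The median log2 effect was 2.03 in each population, and the median difference was 0.010. For the interaction 5 were called lower (Cxcl10, Ifih1, Iigp1, Rsad2 and Trim30a) and 1 higher (Ifi27l2a), beside 1.09% and 0.674% of all genes. Cxcl10, a chemokine for T cells (gene 15945, chromosome 5, 92346638 to 92348889), stood at 96.6, 65.9 and 68.8 CPM in LP KO and 18.5, 20.3 and 16.3 CPM in LP WT. Basal cells had 127, 99.6 and 178 CPM in KO and 7.03, 7.97 and 2.83 CPM in WT, so that basal cells were the higher population in KO mice and the lower one in WT mice (log2 difference -2.50, SE 0.40, adjusted p = 0.0132). Rsad2, which encodes the antiviral enzyme viperin and was chosen after its values were seen, stood at 81.9, 31.3 and 41.03 CPM in LP KO and 3.58, 6.83 and 6.89 in LP WT, and at 46.01, 13.8 and 29.99 CPM in basal KO and 0.495, 1.07 and 0.885 in basal WT (log2 difference -1.98, SE 0.37, adjusted p = 0.0241). Ifih1, the sensor of long double-stranded RNA, had no call in LP, at 81.5, 82.1 and 114 CPM in KO and 76.1, 99.3 and 87.8 CPM in WT. In basal cells it had 104, 56.6 and 77.4 CPM in KO, all above the 9.60, 22.4 and 19.02 CPM of WT (log2 difference -2.19, SE 0.36, adjusted p = 0.016). Iigp1, a GTPase that acts on the vacuoles of parasites, stood at 69.3, 48.7 and 77.7 CPM in LP KO against 22.99, 33.9 and 30.6 in LP WT. In basal cells it had 558, 129 and 328 CPM in KO and 13.8, 44.5 and 16.9 CPM in WT (log2 difference -2.56, SE 0.47, adjusted p = 0.0236). Of 9 oligoadenylate synthetase family members 7 rose in each population. Ifi27l2a ran the other way, at 34.4, 15.3 and 126 CPM in LP KO against 0.578, 0.525 and 0.116 in LP WT. Basal levels were 13.97, 6.004 and 16.9 CPM in KO and 3.02, 3.08 and 3.19 in WT (log2 difference 4.93, SE 0.66, adjusted p = 0.00613). Without WT mouse 2 the calls of Ifih1 and Rsad2 were lost (adjusted p = 0.058 and 0.113), that of Rsad2 also without KO mouse 1 or 3 or WT mouse 1 or 3. Iigp1 lost its call without KO mouse 1 or 3 or WT mouse 1 or 3 (adjusted p up to 0.1), and Trim30a without WT mouse 2 or any 1 KO mouse (up to 0.194). The ranges over the 18 settings were 2.37e-06 to 0.059 for Cxcl10, 8.18e-06 to 0.058 for Ifih1 and 0.000596 to 0.217 for Rsad2.

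Promoters of Cxcl10 and Rsad2 are shown for the interferon-stimulated response element (ISRE), the site of interferon-activated factors, searched as GAAANNGAAA on both strands. The 250 bases before the start (RefSeq, GRCm38.p6, both minus strand, 5′ to 3′, match in capitals) run over chr5:92348890-92349139 for Cxcl10, with the match at -213, and over chr12:26456453-26456702 for Rsad2, with the match at -120.
Cxcl10: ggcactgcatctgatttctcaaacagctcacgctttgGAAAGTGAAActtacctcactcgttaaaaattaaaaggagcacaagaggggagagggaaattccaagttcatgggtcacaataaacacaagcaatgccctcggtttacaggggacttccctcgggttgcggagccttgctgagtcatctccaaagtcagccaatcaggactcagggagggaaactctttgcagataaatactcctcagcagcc
Rsad2: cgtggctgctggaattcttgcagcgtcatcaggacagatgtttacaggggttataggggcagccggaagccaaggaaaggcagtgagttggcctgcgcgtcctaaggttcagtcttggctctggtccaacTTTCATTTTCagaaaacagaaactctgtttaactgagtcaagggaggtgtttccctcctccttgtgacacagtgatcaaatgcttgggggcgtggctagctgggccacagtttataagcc
An ISRE was in 51.4% of the interferon-stimulated genes' promoters and in 3.0% of those of all genes tested. It was in 8.3% of promoters of genes called higher, 9.3% of genes called lower, and 16.3% of genes called lower that rose in basal cells alone.

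Of 32 homologous recombination and Fanconi genes, which act with Brca2, edgeR called 0, with 5 lower at an unadjusted p below 0.05 and 0 called by DESeq2 or limma voom (median -0.19). In basal cells 7 of the 32 rose, beside 2.48% of all genes, and in LP 3 of the 32, beside 6.41% of all genes. Fanca stood at 12.3 ± 5.25 CPM in LP KO against 8.03 ± 4.99 in LP WT. Basal libraries averaged 3.74 ± 0.892 CPM in KO and 0.629 ± 0.238 CPM in WT (log2 difference -1.85, SE 0.60, adjusted p = 0.171). Of 32 p53 targets 0 were called, with 2 higher and 9 lower at an unadjusted p below 0.05, 6 lower by DESeq2 and 1 lower by limma voom. Within LP 6 of them fell and 3 rose, and within basal cells 0 fell and 2 rose. Ccng1 had 18.5, 25.7 and 24.98 CPM in LP KO against 52.2, 136 and 72.9 in LP WT, and overlapping basal levels of 71.7, 42.1 and 66.7 CPM in KO and 39.9, 76.9 and 82.6 in WT (log2 difference -1.70, SE 0.39, adjusted p = 0.0572).

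Of 72 oxidative phosphorylation genes tested, 65 had a positive value (median 0.69). In LP 26 of the 72 rose and in basal cells 0, beside 6.41% and 2.48% of all genes. For the interaction edgeR, DESeq2 and limma voom called 0, with 17 higher and 1 lower at an unadjusted p below 0.05. Ndufa4, a subunit of the respiratory chain, averaged 234 ± 70.2 CPM in LP KO against 70.95 ± 4.73 in LP WT. Basal levels averaged 113 ± 22.3 CPM in KO and 80.1 ± 15.04 in WT (log2 difference 1.18, SE 0.39, adjusted p = 0.179). For 31 proteasome subunits the median was 0.59, with 29 positive, 9 higher at an unadjusted p below 0.05 and 0 called by any of the 3 tools. The 75 cytosolic ribosomal protein genes had a median of 0.33, with 62 positive, 3 higher at an unadjusted p below 0.05 and 0 called by any of the 3. Class I presentation (21 genes, median 0.48) had 4 higher at an unadjusted p below 0.05 and 0 called by any of the 3. Of 19 glycolysis genes edgeR and limma voom called 0, DESeq2 called 2 higher, and 5 were higher and 1 lower at an unadjusted p below 0.05. Of 24 ATF4 and amino acid genes edgeR and limma voom called 0, DESeq2 called 2 lower, and 5 were higher and 2 lower unadjusted. Of 23 cholesterol synthesis genes edgeR and limma voom called 0 and DESeq2 1 higher, with 1 higher unadjusted. Of 18 epithelial-mesenchymal transition genes edgeR and limma voom called 0, DESeq2 2 higher and 2 lower, with 3 higher and 4 lower unadjusted. Of 23 Notch pathway genes edgeR and limma voom called 0 and DESeq2 2 lower, with 5 lower unadjusted. Of 16 G1 cyclins and inhibitors edgeR called 0, DESeq2 3 lower and limma voom 1 lower, with 1 higher and 5 lower unadjusted. Of 15 complement genes edgeR and limma voom called 0 and DESeq2 2 higher, with 4 higher and 1 lower unadjusted.

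The remaining lists had calls in both directions or 1 call, where 0.674% of all genes were called higher and 1.09% lower. Among 30 collagen and matrix genes 3 were called higher (Col6a1, Col6a2 and Postn) and 3 lower (Col9a1, Lama3 and Tnc). Tnc, a matrix protein of stroma and wounds, stood at 75.8, 93.7 and 66.7 CPM in LP KO against 71.5, 128 and 170.3 in LP WT. Basal levels were 58.01, 65.05 and 34.3 CPM in KO and 10.2, 7.17 and 22.7 in WT (log2 difference -2.66, SE 0.39, adjusted p = 0.00876). Basal KO libraries all exceeded basal WT libraries for Tnc, while LP libraries overlapped. Of 27 NF-kB and cytokine genes 2 were called higher (Ccl2 and Csf1) and 1 lower (Cxcl15), of 24 nucleic acid sensing genes 1 higher (the kinase Ikbke) and 1 lower (Ifih1), of 31 Wnt pathway genes 1 higher (Nkd2) and 1 lower (Lgr5), and of 18 heat shock genes 1 higher (Hspb8) and 0 lower. Ikbke averaged 13.5 ± 5.08 CPM in LP KO against 2.82 ± 1.90 in LP WT. Among basal libraries the means were 18.2 ± 3.69 CPM in KO and 16.6 ± 4.67 in WT (log2 difference 2.17, SE 0.42, adjusted p = 0.0291). Calls lost without WT mouse 2 were those of Col6a1, Postn, Cxcl15 and Ikbke (adjusted p = 0.0837, 0.122, 0.0512 and 0.156), with that of Col6a1 lost also without WT mouse 1, that of Postn without WT mouse 3 or any 1 KO mouse, and that of Ikbke without WT mouse 1, KO mouse 1 or KO mouse 3. Over the 18 settings the 4 ran from 3.29e-05 to 0.141, 4.85e-05 to 0.135, 7.99e-06 to 0.144 and 0.000415 to 0.156, and Tnc from 1.15e-07 to 0.0501.

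**Figure D5:**
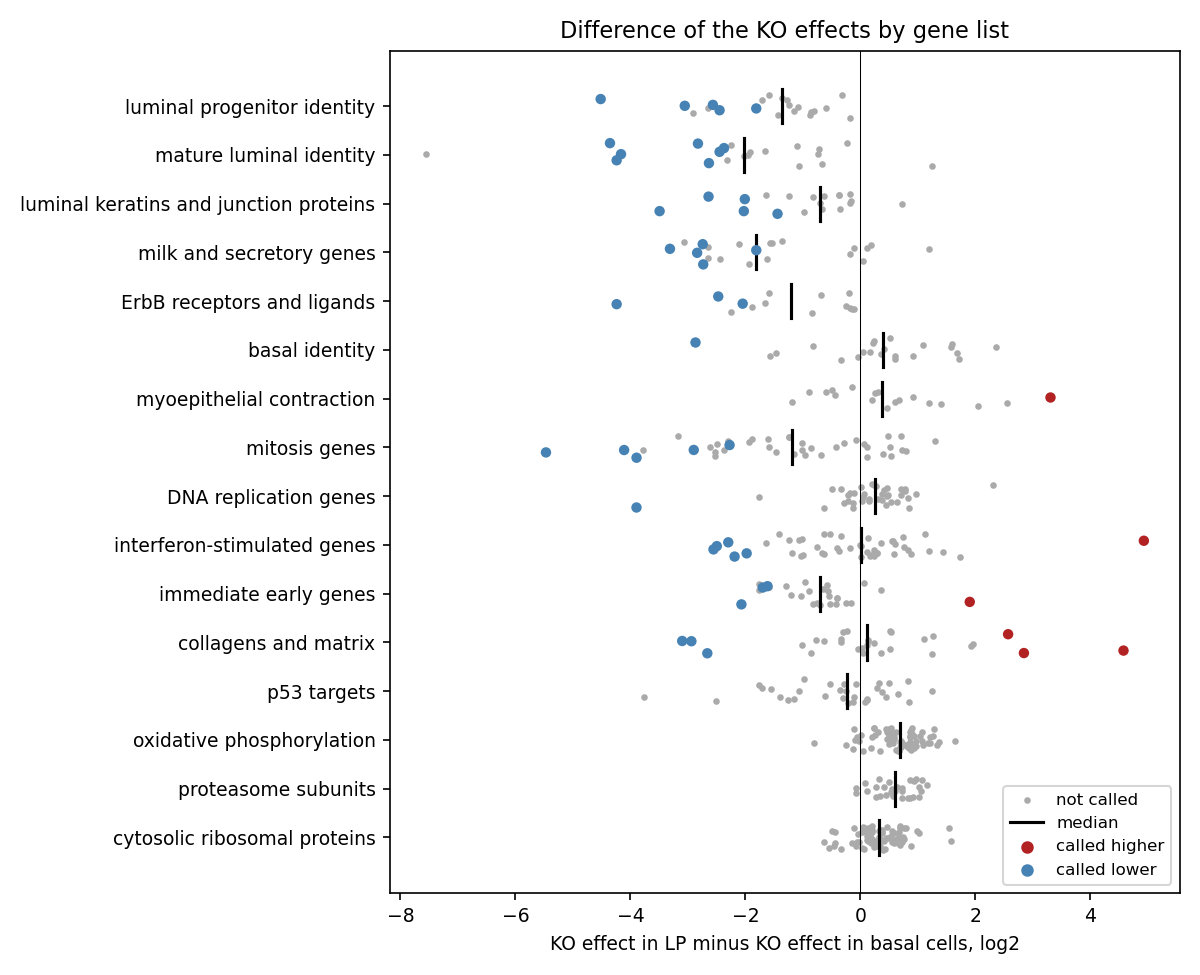
KO effect in LP minus KO effect in basal cells (log2) for the members of 16 gene lists, each point 1 gene, with called genes in red (higher) or blue (lower) and a black bar at the list's median. The luminal, milk and ErbB lists lie mostly below 0, mitosis genes have 5 calls below 0, and the oxidative phosphorylation and proteasome genes lie mostly above 0 without a call.

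Mature luminal (ML) cells, sorted from the same 6 mice, were not part of the comparison. Of 14417 genes tested there, 1582 rose in KO (11%) and 518 fell (3.59%). Of 22 basal identity genes 16 rose in ML KO and 0 fell, and of 21 luminal progenitor identity genes 15 rose and 1 fell. Of 21 mature luminal identity genes 0 rose and 7 fell. The part that basal or LP cells in the ML KO sort might have in these changes was not tested. Among the genes called higher, 105 were tested in ML, of which 61 rose and 1 fell. Among the genes called lower, 170 were tested, of which 63 rose and 18 fell. The 16 genes called lower that rose in both LP and basal cells all rose in ML too. Cpe stood at 83.2, 33.8 and 41.9 CPM in ML KO against 3.61, 2.61 and 4.76 in ML WT (log2 fold change 3.82, SE 0.41, adjusted p = 0.00082), and Hspb8 at 201, 113 and 116 against 48.1, 36.97 and 24.6 CPM (log2 fold change 1.98, SE 0.31, adjusted p = 0.00418). Lama3, which fell in LP, rose in ML, at 94.5, 54.01 and 60.5 CPM in KO against 6.31, 4.56 and 6.85 in WT (log2 fold change 3.55, SE 0.29, adjusted p = 0.00025). Areg was not called in ML, at 858, 1449 and 948 CPM in KO and 1729.7, 1959 and 806 CPM in WT (adjusted p = 0.389). Col8a1 fell in ML as it did in LP, to 98.9, 179.6 and 492 CPM in KO against 1930.3, 964 and 1050.3 CPM in WT (log2 fold change -2.35, SE 0.56, adjusted p = 0.0245).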

How the data were processed

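Messenger RNA was sequenced from 18 libraries (TruSeq RNA v2), and the 12 LP and basal libraries entered the comparison. The authors deposited raw counts per gene in a table of 27179 gene identifiers, counted with featureCounts on mm10 per the submitters' processing notes. No source used here gives the aligner, annotation or strand setting, and reads of overlapping or antisense genes cannot be told apart. All 18 single-library count files equalled the deposited table. RefSeq tables of the same build (GRCm38.p6) gave symbols for 25275 identifiers, and the rest held 1.6% of the counts.

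Genes were kept by filterByExpr over the 4 groups, which left 15874, and scaled by TMM in edgeR 4.0.16 (R 4.3.3). The interaction was tested with edgeR's quasi-likelihood test with the mouse as a block (4 residual degrees of freedom, biological coefficient of variation 27.1%). KO against WT within LP and within basal cells came from the same 12 libraries by group without the block (33.7%), and within mature luminal cells from their own 6 libraries. A call is a Benjamini-Hochberg adjusted p below 0.05 over all genes tested. Libraries of the same number came from 3 individual mice per genotype. Deviations from the group means correlated by 0.124 to 0.301 between LP and basal libraries of the same mouse in all 6 mice. For the interaction, the p-values rest on how the LP minus basal difference within a mouse varied between mice of a genotype, moderated across genes. For KO against WT within LP or basal cells they rest on the spread within the 4 groups. That fit treats the LP and basal libraries of a mouse as independent. Within-mouse values are log2 CPM with a prior count of 0.5.

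Named genes were Trp53 and Brca2, called genes with at least 2 CPM in some group and no overlap between KO and WT mice (the 12 of lowest p and the 6 of largest size in each direction), and up to 4 called members of each list. A few of these genes are not reported here. A fold against a group with no reads was taken against 3 counts over the group, and counting intervals cover counting error only. Motifs were searched in 300 bases per start (250 before, 50 after) of the first RefSeq start of each gene. The lists, members and naming rule were chosen with earlier results of these data known. The fits were also run on counts with known changes, simulated from fitted means and dispersions of these libraries. Such counts cannot show whether calls depend on single mice, and no result given here rests on them. Alternatives were no block, all 18 libraries, DESeq2 1.42.0, limma voom 3.58.1, other scalings and filters, thinned libraries, a gene length trend and each mouse left out. Read ratios with 1 mouse left out were added after seeing the data.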

Additional observations from a re-analysis of the deposited data

Results flagged for a closer look

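The difference of the KO effect between LP and basal cells was itself tested, and 107 genes were called with a more positive and 173 with a more negative effect in LP. For 8 genes the effect was called in opposite directions, down in LP and up in basal cells. Several of these single calls lay near the threshold (edgeR adjusted p up to 0.0383 in LP and 0.0457 in basal cells). The difference (LP minus basal, log2) was -6.22 for Col8a1, -3.87 for Chl1, -4.32 for Egflam and -2.83 for Foxa1. It was -2.26 for Flrt3, -4.70 for Kcnd2, -2.63 for Itgb6 and -3.16 for Spon1.

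Mature luminal cells lie outside the comparison and also showed a KO effect in many of the same genes. There, 61 of the 105 genes called higher and tested rose in KO against WT, and 63 of the 170 called lower did, beside 11% of all genes tested in these cells. The mature luminal libraries came from the same mice as the LP and basal libraries. In them 16 of 22 basal identity and 15 of 21 luminal progenitor identity genes rose in KO, and 0 and 1 fell. Whether basal or LP cells in the mature luminal KO sort had a part in this was not tested.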

How the results depend on the processing

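All 280 calls kept their direction in each of the 18 other settings in which they were tested, and the counts of calls moved. The kept direction is no support, because the genes were picked from these same counts. Within-mouse differences did not overlap between KO and WT mice for all 107 and for 172 of the 173 genes (23.9% of all genes tested). Leaving out 1 mouse could therefore hardly turn a direction. Without the mouse block the calls were 63 higher and 87 lower, against 107 and 173 with it, and 139 of the 280 genes remained called. With all 18 libraries they were 153 and 284 with the block and 60 and 108 without it. DESeq2 called 266 higher and 538 lower, among them 279 of the 280 genes. No filter on low counts gave 219 and 376, and removing a trend on gene length gave 162 and 260. With 1 mouse left out in turn the calls ranged from 26 to 93 higher and from 37 to 174 lower, both lowest without WT mouse 2, where 57 of the 280 remained. Within LP the leave-one-out ranges were 323 to 1006 rises and 115 to 707 falls, and within basal cells 209 to 382 rises and 0 to 23 falls. DESeq2 called 1232 falls in LP, and 654 rises and 51 falls in basal cells. No filter gave 16 basal falls. The Brca2 difference, never called, was 0.13 and turned to -0.009 with the mouse as a random effect in limma voom. With 1 mouse left out it ranged from -0.222 without KO mouse 1 to 0.521 without KO mouse 3, and was -0.049 without WT mouse 2. The Trp53 difference of -1.68 was called with DESeq2, limma voom with a fixed block, RLE scaling, all 18 libraries with the block, no filter, the length trend removed, and without KO mouse 3 (-1.66 to -1.91). The causes of these shifts were not tested.

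Of 93 called genes, picked by the naming rule or after their values were seen, 28 kept their call in all 18 settings. With 3 mice per genotype and 4 residual degrees of freedom, a gene without a call is not shown to respond alike in both populations. Genes near 0 in LP WT have folds that are bounds or counting ratios, as has Aurkb in basal cells. Bub1, Pclaf and Kcnd2 were close to 0 in basal WT too (means of 0.0723, 0.128 and 0.134 CPM). The size of their log2 differences therefore rests on few reads. With libraries thinned to the depth of the shallowest the calls were 83 higher and 131 lower.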
